A study of Mus musculus with 16 samples.

Results

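The claudins, occludin, the cytoplasmic scaffold genes Tjp1, Tjp3 and Cgn, and the connexins are the structural genes of tight and gap junctions, and their expression was followed in sorted mouse epidermal cells that carry an active hedgehog signal. They were chosen by gene symbol, as all genes of the array annotation named Cldn, Gja, Gjb, Gjc, Gjd or Gje with a number, together with Tjp1, Tjp3, Ocln and Cgn. This gave 38 of the 18194 genes on the array: 20 claudins, 14 connexins, occludin and 3 scaffold genes. Each gene was read from its probe set with the highest mean over the 16 arrays.

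The cells were sorted by flow cytometry from tail epidermis of mice of mixed strain background, and RNA was hybridised to Affymetrix 3′ expression arrays. In the interfollicular epidermis (IFE), mice with K14CREER/Rosa-SmoM2-YFP and, in addition, b-cat flox/flox alleles carried both SmoM2 and loss of β-catenin for 4 weeks (n = 2). SmoM2 is a constitutively active form of Smoothened, the transducer of the hedgehog signal, and is used to model basal cell carcinoma. In K14CREER/Rosa-SmoM2-YFP mice, tamoxifen activates a recombinase driven by the keratin 14 promoter of basal keratinocytes and so switches SmoM2 on, and IFE cells were taken from untreated mice of that genotype as the control (n = 3), with 1 array at 3 days, 3 arrays each at 1 and 4 weeks and 2 arrays at 10 weeks. Bulge and outer root sheath cells of the hair follicle came from K19CREERT2/Rosa-SmoM2-YFP mice, with SmoM2 for 4 weeks (n = 1) and untreated (n = 1). There was no group with β-catenin loss and without SmoM2, and no tamoxifen-treated control, so SmoM2, tamoxifen, the time since it and the sorting of SmoM2 cells cannot be told apart.

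Tight junctions seal the space between keratinocytes of the granular layer: claudins and occludin span the membrane, claudins set which ions and solutes pass, and scaffold proteins tie them to the actin cytoskeleton. Gap junctions are channels of connexin subunits through which neighbouring cells exchange ions and small molecules, and several connexins are made in the epidermis. The RNA of many of these genes is known in both basal and suprabasal keratinocytes, while sealed tight junctions form only in the upper layers.

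The arrays had medians of 5.38 to 5.53 on the log2 scale, and the number of arrays limits the precision. Ctnnb1, which encodes β-catenin, read 12.76 and 12.93 in the β-catenin loss arrays, against 13.21 to 13.65 in the 4-week SmoM2 arrays and 12.76 to 13.04 in IFE control. The loss arrays thus read at the control level. Where its probes lie relative to the deleted part is not given. Gli1, a hedgehog target gene, was at 7.22 and 9.56 in the 2 loss arrays, which stand apart from each other, and at 9.95 to 10.83 with SmoM2 alone for 4 weeks and 5.30 to 5.73 in IFE control. In the bulge it was at 9.96 with SmoM2, against 9.89 in the array labelled as the bulge control, whose source label also names SmoM2-positive cells. The mean signal of 3 Y-linked genes differed within and between groups. It was at 3.39 and 6.91 with β-catenin loss and at 6.02 to 8.41 with SmoM2 alone for 4 weeks. At 10 weeks it was at 8.10 and 8.15, and in IFE control at 3.41 to 8.18. In the bulge it was at 6.35 in the array labelled as control and at 3.48 with SmoM2. All 6 basal keratinocyte markers were above the signal filter, with array means of 12.1 to 12.7 in the IFE.

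Promoters are shown for the 3 genes whose difference passed the test in at least 1 comparison (Cldn1, Tjp3 and Gjb6) and for Gjb2, the neighbour of Gjb6 that is described beside it. Each is the RefSeq window from 250 bases before to 50 bases after the start in GRCm38.p6, printed 5′ to 3′ on the gene's strand, which is the minus strand for all 4. The windows are chr16:26371790-26372089 for Cldn1, chr10:81291532-81291831 for Tjp3, chr14:57133562-57133861 for Gjb6 and chr14:57104653-57104952 for Gjb2. Capitals mark the E-box CAGGTG, the site of Snail and Zeb factors, or its reverse complement.
Cldn1: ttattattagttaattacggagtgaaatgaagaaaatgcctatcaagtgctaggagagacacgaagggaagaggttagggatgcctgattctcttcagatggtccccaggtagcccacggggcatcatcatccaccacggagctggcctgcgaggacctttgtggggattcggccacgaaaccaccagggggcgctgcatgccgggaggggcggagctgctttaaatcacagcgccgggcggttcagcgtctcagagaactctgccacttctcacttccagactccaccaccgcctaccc
Tjp3: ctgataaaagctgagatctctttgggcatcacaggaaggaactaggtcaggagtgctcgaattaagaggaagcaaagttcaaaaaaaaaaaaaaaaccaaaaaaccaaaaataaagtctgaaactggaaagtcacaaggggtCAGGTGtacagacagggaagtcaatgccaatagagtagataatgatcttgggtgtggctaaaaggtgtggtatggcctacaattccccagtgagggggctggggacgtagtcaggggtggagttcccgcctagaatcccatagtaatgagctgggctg
Gjb6: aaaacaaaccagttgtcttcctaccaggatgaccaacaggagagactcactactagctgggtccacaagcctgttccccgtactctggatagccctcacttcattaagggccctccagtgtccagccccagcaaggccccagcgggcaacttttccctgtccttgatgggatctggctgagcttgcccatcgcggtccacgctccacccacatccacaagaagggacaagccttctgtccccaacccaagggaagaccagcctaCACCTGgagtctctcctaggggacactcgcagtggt
Gjb2: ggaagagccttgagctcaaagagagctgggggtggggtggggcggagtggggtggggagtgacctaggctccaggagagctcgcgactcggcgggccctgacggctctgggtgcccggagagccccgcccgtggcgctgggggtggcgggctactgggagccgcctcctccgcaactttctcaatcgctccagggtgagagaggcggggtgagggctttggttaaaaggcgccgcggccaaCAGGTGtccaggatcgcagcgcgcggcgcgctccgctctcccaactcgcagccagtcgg

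The E-box lay at -108 in the printed Tjp3 window and at -17 in a second Tjp3 window (chr10:81291218-81291517), at 15 in the Gjb6 window and at -9 in the Gjb2 window, counted from the start, and these letters were not in the Cldn1 window. Over all 32851 RefSeq windows of this length, 20.2% held CAGGTG on either strand, and 13 of the 37 windows of the 24 junction genes with a window did. The Gli site GACCACCCA, which 0.253% of all windows hold, and the grainyhead-like site AACCGGTT, which 0.146% hold, were in none of the 37. The Tcf/Lef site CTTTGTT (5.85% of all windows) was found for Cldn4 and CTTTGAT (3.73%) for Cldn18. The AP-1 site TGANTCA (7.81%) was found for Cldn4, Cldn15 and Gja1, and TATAAA (13.6%) for Cldn2, Gja3, Gjb1 and Gjb5. All were searched on both strands, none contains another, and a match is a description of the letters only.

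Of the 38 genes, 30 had a log2 signal over the 40th percentile (4.88 to 5.01) on 2 or more arrays and were tested, which is 78.9% of them and close to the 78.5% of all genes. These were 16 claudins, 10 connexins, occludin and the 3 scaffold genes. Cldn6, Cldn11, Cldn16, Cldn19, Gja5, Gja10, Gjc3 and Gje1 did not pass, with signals of 2.89 to 4.94 on every array. Differences were small for 15 of the 30 in the probe set used, at most 0.53 on the log2 scale in the 8 IFE comparisons. These were 10 claudins and 5 connexins, among them Cldn3, Cldn7, Cldn12 and Cldn18. Apart from Cldn12 and Gja1, these genes read 4.22 to 6.96 on all arrays, where array medians were 5.38 to 5.53. A small difference at such low signal does not show steady expression, and the share of all genes this quiet was not taken. Of the 30, 14 were above the 40th percentile on all arrays. The map of all 30 genes on each array shows that the larger differences from IFE control lay in a few rows.

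**Figure D1:**
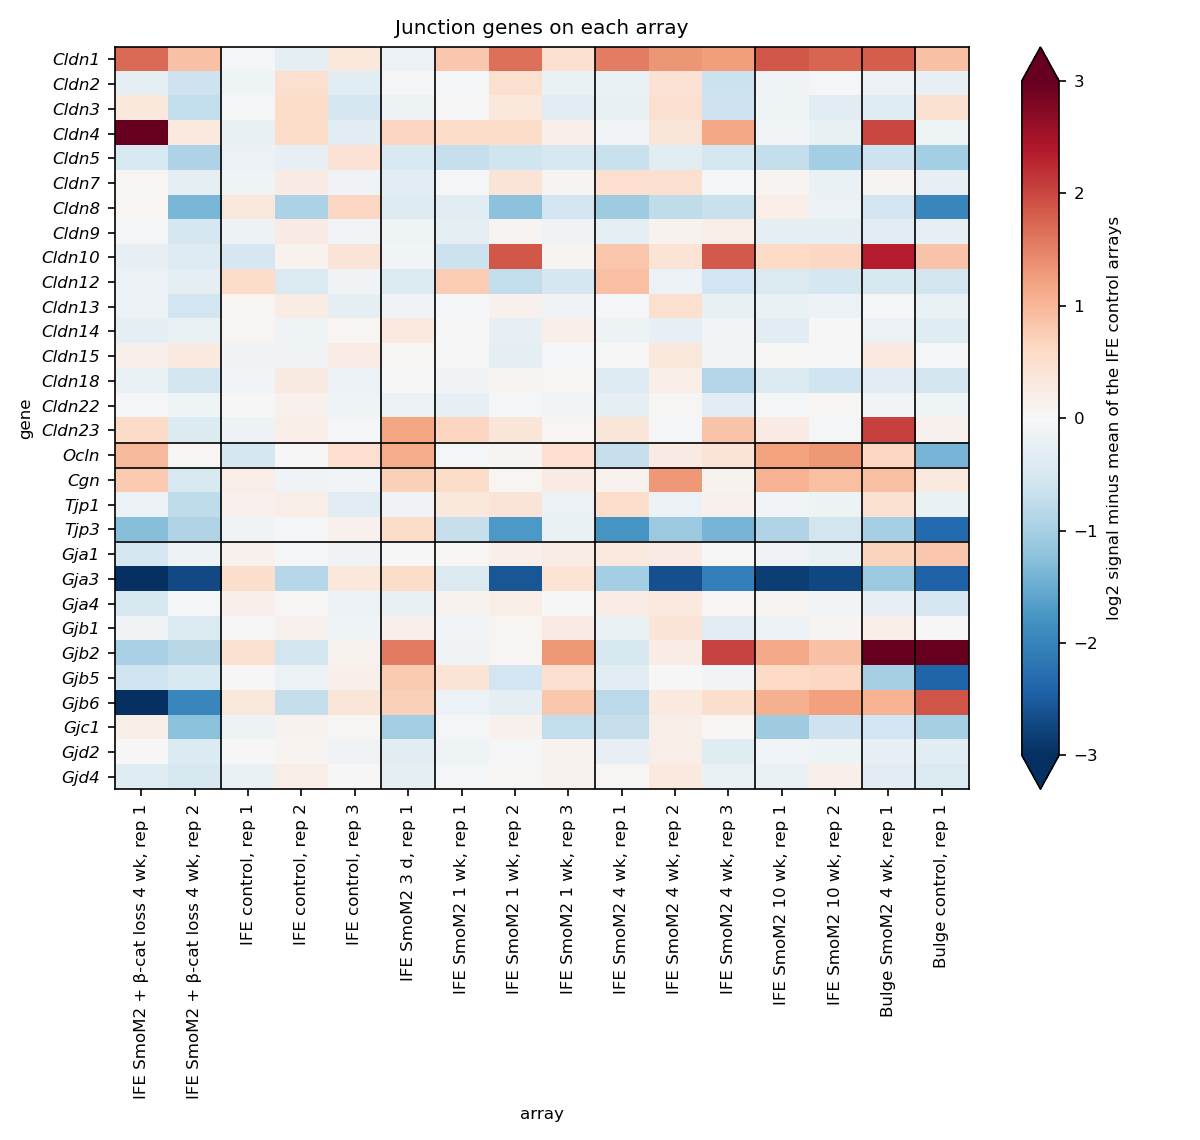
Log2 signal of the 30 tested junction genes (rows, by family) on each of the 16 arrays (columns), as the difference from the gene's own mean over the 3 IFE control arrays, with colours limited to 3 either way. Cldn1 was above its control mean on all arrays of 1, 4 and 10 weeks, Tjp3 and Gja3 were below theirs on all arrays of 4 and 10 weeks, and Gjb6 was lowest on the 2 β-catenin loss arrays.

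Cldn1, the claudin without which the mouse epidermal barrier leaks water, rose with SmoM2. Its log2 signal was 9.96, 9.75 and 10.33 in IFE control, 9.84 at 3 days, 10.83, 11.67 and 10.50 at 1 week, 11.54, 11.34 and 11.28 at 4 weeks and 11.87 and 11.75 at 10 weeks. From 1 week on, no SmoM2 array overlapped the control. The mean was 11.38 ± 0.14 (SD, n = 3) at 4 weeks and 10.01 ± 0.29 (SD, n = 3) in control, a difference of 1.37 ± 0.30 (SE), or 2.59-fold (limma, adjusted p = 0.0345). At 10 weeks it was 1.80 ± 0.34 above control, or 3.48-fold (limma, adjusted p = 0.0434). At 1 week it was 0.99 ± 0.30 above control and did not pass (limma, adjusted p = 0.569), and at 3 days it was -0.17 ± 0.43.

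With β-catenin loss, Cldn1 read 11.71 and 10.89, against 11.28 to 11.54 with SmoM2 alone for 4 weeks. These groups overlapped, and the difference was -0.08 ± 0.34 (limma, adjusted p = 0.931). A second Cldn1 probe set read differently here: it gave 1.80 for the same comparison, 1.19 for 4 weeks against control and 1.94 for 10 weeks against control. The other 2 Cldn1 probe sets were not above the filter. The calls of Cldn1 were lost when any 1 of the arrays compared was left out, with adjusted p of 0.0588 to 0.136 at 4 weeks and 0.0736 to 0.512 at 10 weeks, while the difference itself stayed at 1.24 to 1.53 and at 1.67 to 1.96. The 5 bulge markers averaged 7.70 in control, 9.68 at 4 weeks and 9.58 at 10 weeks, with 2 of the 5 passing at each of these times against control, and their part in the Cldn1 result was not tested. In bulk arrays such as these, fewer cells of a type and less RNA per cell cannot be told apart.

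The other claudins did not pass the test in any comparison. Cldn4, a claudin of the upper epidermis, read 9.72 and 6.40 with β-catenin loss, against 6.03, 6.49 and 7.27 with SmoM2 alone for 4 weeks and 5.88, 6.67 and 5.79 in control. A single loss array was therefore far above every other IFE array, and the groups overlapped. The difference from SmoM2 alone was 1.47 ± 0.72 (limma, adjusted p = 0.330) and became -0.19 without loss replicate 1. The difference from control was 1.95 ± 0.72 (limma, adjusted p = 0.238).

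Cldn5, best known from the seal between endothelial cells, read 5.65, 5.59 and 6.26 in control, 5.37 at 3 days, 5.14, 5.23 and 5.36 at 1 week, 5.17, 5.49 and 5.31 at 4 weeks and 5.12 and 4.81 at 10 weeks. All SmoM2 arrays were below all control arrays, but at 10 weeks the difference was -0.87 ± 0.24 and did not pass (limma, adjusted p = 0.139). Of 6 endothelial markers, 2 passed the signal filter. The mean of the 6 was 4.34 at 10 weeks and 4.71 in control, and their part in the Cldn5 values was not tested.

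Cldn10, whose protein forms ion-selective pores, read 6.14, 5.73 and 7.14 at 4 weeks, against 4.82, 5.41 and 5.70 in control. The groups did not overlap, and the difference was 1.03 ± 0.54 (limma, adjusted p = 0.428). With β-catenin loss it read 5.06 and 4.92, and was 1.34 ± 0.61 below SmoM2 alone (limma, adjusted p = 0.285). Cldn8, a sealing claudin of other epithelia, ranged from 4.81 to 7.39 over all arrays and overlapped the control at 4 weeks. Cldn23 was at 5.02 in the 3-day array and at 3.69, 4.05 and 3.80 in control. The difference of 1.18 ± 0.42 did not pass, with the lone array assumed to vary like the other groups. Cldn23 exceeded the 40th percentile on 2 arrays only, this one and that of bulge SmoM2. It was thus tested only because of the arrays in which it was high.

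Ocln, which encodes the transmembrane partner of the claudins, did not pass the test in any comparison. It read 6.78, 7.33 and 7.82 in control, 8.41 at 3 days, 7.28, 7.38 and 7.82 at 1 week, 6.63, 7.56 and 7.72 at 4 weeks and 8.51 and 8.61 at 10 weeks. The 10-week arrays lay above all control and 4-week arrays. The difference from control was 1.25 ± 0.40 (limma, adjusted p = 0.196), and that from 4 weeks was 1.25 ± 0.40 (limma, adjusted p = 0.794). A second Ocln probe set gave 1.09 and 1.06 for these comparisons.

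Tjp3, a zonula occludens scaffold that binds claudin tails, fell with SmoM2 at 4 weeks. It read 7.38, 7.47 and 7.63 in control, 8.05 at 3 days, 6.80, 5.76 and 7.29 at 1 week, 5.73, 6.39 and 6.10 at 4 weeks and 6.58 and 6.95 at 10 weeks. All arrays from 1 week on were below all control arrays, and the 3-day array was above them. The mean was 6.07 ± 0.33 (SD, n = 3) at 4 weeks and 7.49 ± 0.13 (SD, n = 3) in control, a difference of -1.42 ± 0.33, so the signal was 2.68-fold lower (limma, adjusted p = 0.0417). Without any 1 of the 6 arrays the adjusted p was 0.0640 to 0.143.

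At 1 week Tjp3 was at -0.88 ± 0.33 (limma, adjusted p = 0.821) and at 10 weeks at -0.73 ± 0.37 (limma, adjusted p = 0.554). With β-catenin loss it read 6.22 and 6.59 and overlapped SmoM2 alone (0.34 ± 0.37, limma, adjusted p = 0.700). The mean of 6 suprabasal keratinocyte markers was 8.85 at 4 weeks (8.20 to 10.0 by array) and 9.73 in control (9.56 to 9.84). Of the 6, 3 were higher than in control and 3 lower, with differences from -3.83 (Krt2) to 0.31. Their part in the Tjp3 result was not tested.

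Tjp1, the best studied scaffold of this family, read 9.86 and 9.26 with β-catenin loss, against 10.54, 9.84 and 10.14 with SmoM2 alone, and did not pass (-0.62 ± 0.28, limma, adjusted p = 0.284). Cgn, which encodes cingulin, the adaptor to actin and microtubules, read 6.56 and 6.40 at 10 weeks and 5.71, 5.39 and 5.42 in control. Both 10-week arrays were above all controls, with a difference of 0.97 ± 0.40 (limma, adjusted p = 0.381).

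**Figure D2:**
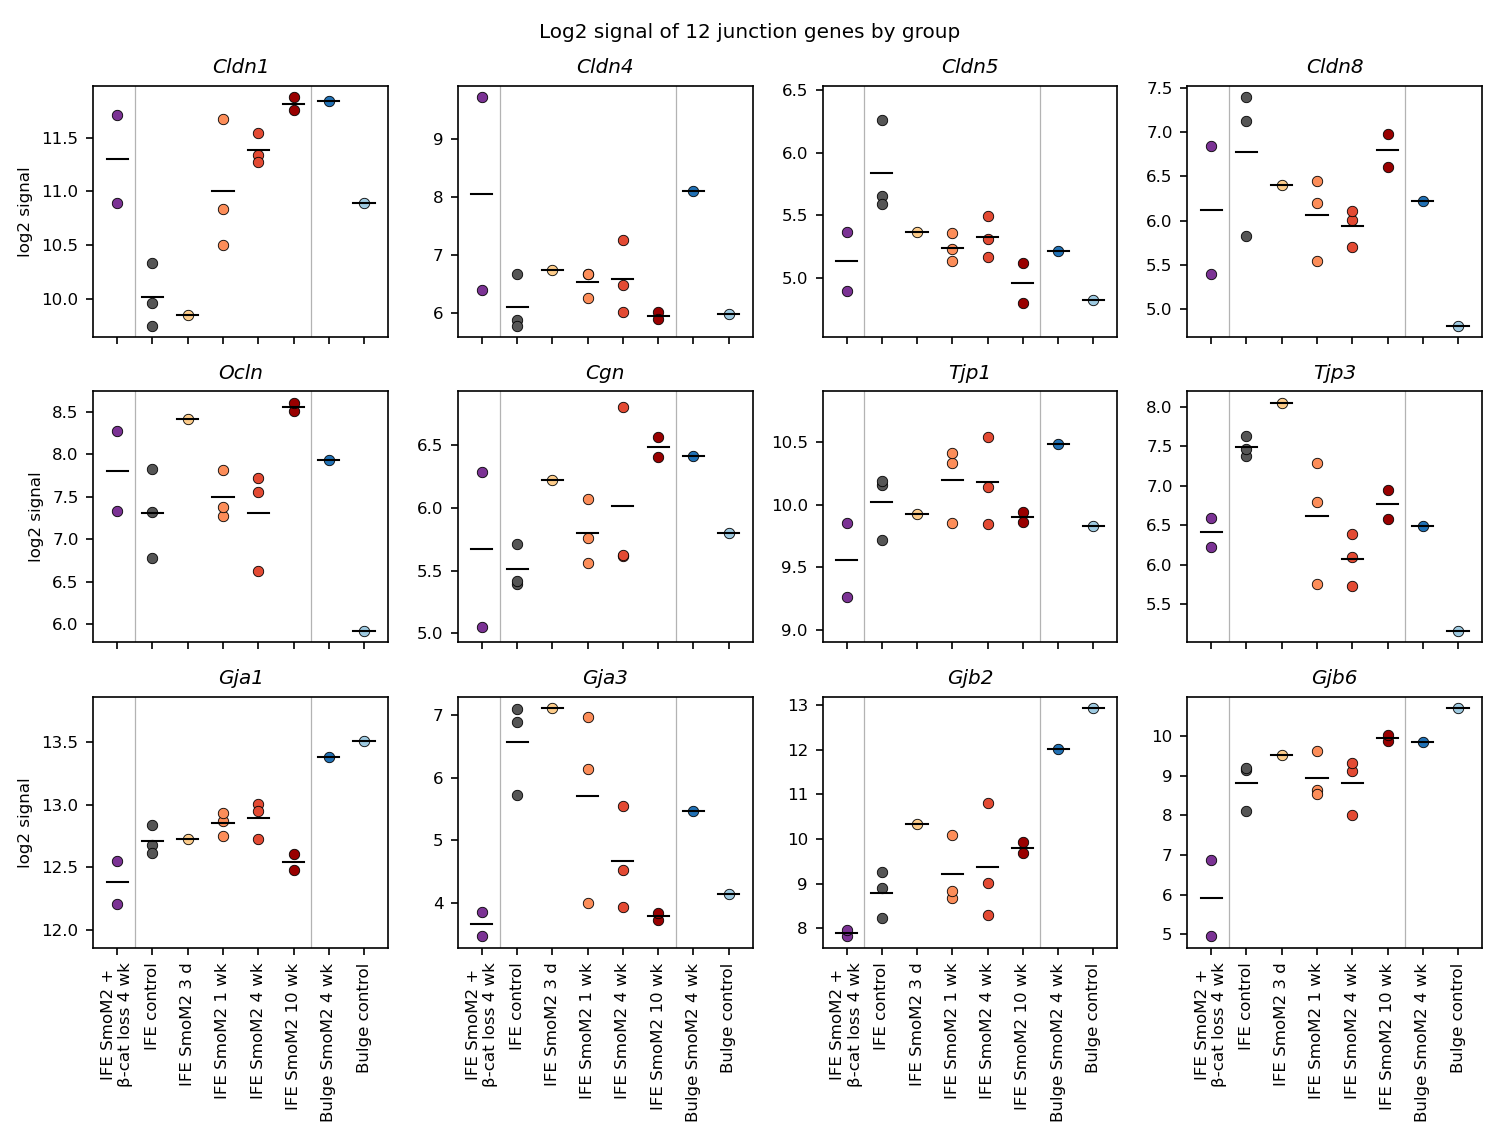
Log2 signal of 12 junction genes by group, 1 point per array and a bar at the group mean, each panel with its own scale, so levels compare within a gene only. Cldn1 lay above IFE control from 1 week on, Tjp3 at 4 weeks read 5.73 to 6.39 against 7.38 to 7.63 in control, and Gjb6 with β-catenin loss read 4.95 and 6.87 against 8.01 to 9.33 with SmoM2 alone.

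Gjb6, a connexin of the epidermis and hair follicle whose human gene is mutated in hidrotic ectodermal dysplasia, fell with β-catenin loss. It read 4.95 and 6.87 there, against 8.01, 9.12 and 9.33 with SmoM2 alone for 4 weeks and 9.16, 8.10 and 9.19 in control. The loss arrays were below every other array of the series, and the mean was 5.91 ± 1.36 (SD, n = 2), against 8.82 ± 0.71 (SD, n = 3) with SmoM2 alone. The difference was -2.91 ± 0.58, so the signal was 7.52-fold lower (limma, adjusted p = 0.0337). Against control the difference was also -2.91 ± 0.58, but this did not pass (limma, adjusted p = 0.0648).

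The size of the difference depended on which loss array was kept. Without loss replicate 1, in which Gli1 was also the lower of the pair, it was -1.95 (limma, adjusted p = 0.331), and without loss replicate 2 it was -3.87 (limma, adjusted p = 0.0162). With the Y-linked signal as a covariate it was -2.92 (limma, adjusted p = 0.0675). The call of Gjb6 was also lost without replicate 2 or without replicate 3 of SmoM2 alone, and with only the groups compared. The 5 bulge markers averaged 8.58 with β-catenin loss and 9.68 with SmoM2 alone, the 5 melanocyte markers 5.28 and 6.75, the 6 dermal fibroblast markers 5.12 and 6.33 and the 5 sebaceous gland markers 10.8 and 9.66, and their part in the result was not tested.

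SmoM2 alone left the Gjb6 signal at 9.53 at 3 days, 8.64, 8.55 and 9.62 at 1 week and 9.87 and 10.04 at 10 weeks. The 10-week arrays were above the control arrays, and the difference of 1.14 ± 0.58 did not pass (limma, adjusted p = 0.544).

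Gjb2, the neighbouring connexin whose human gene is mutated in hereditary deafness and in keratoderma, read 7.81 and 7.96 with β-catenin loss, against 8.30, 9.02 and 10.81 with SmoM2 alone and 9.25, 8.23 and 8.89 in control. Both loss arrays were below all the others in the IFE, while SmoM2 alone spread widely. The difference from SmoM2 alone was -1.49 ± 0.62 (limma, adjusted p = 0.247). Gja3, Gjb2 and Gjb6 lie next to each other on chromosome 14 of GRCm38.p6, from 57034460 to 57133611.

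Gja3, a connexin best known from the lens, had low signals at 10 weeks and with β-catenin loss but passed in no comparison. It read 7.10, 5.72 and 6.89 in control, 7.11 at 3 days, 6.13, 4.00 and 6.97 at 1 week, 5.55, 3.93 and 4.53 at 4 weeks and 3.73 and 3.84 at 10 weeks, and 3.46 and 3.85 with β-catenin loss. The arrays of 4 and 10 weeks were below all control arrays, and those of 1 week overlapped them. The differences were -1.90 ± 0.66 at 4 weeks (limma, adjusted p = 0.169) and -2.78 ± 0.74 at 10 weeks (limma, adjusted p = 0.119), and -2.91 ± 0.74 with β-catenin loss against control (limma, adjusted p = 0.114).

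A second Gja3 probe set read -0.32, -0.22 and -0.61 for the same 3 comparisons. The 5 melanocyte markers averaged 8.54 in control, 7.92 at 3 days, 7.28 at 1 week, 6.75 at 4 weeks and 5.97 at 10 weeks, and 5.28 with β-catenin loss. From 1 week on both they and Gja3 had lower group means than control, while at 3 days Gja3 was 0.54 above control, and their part in the Gja3 values was not tested.

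Gja1, the most widespread connexin of skin, stayed within 12.2 to 13.5 over all arrays in the probe set used. With β-catenin loss it read 12.21 and 12.55, against 13.00, 12.95 and 12.72 with SmoM2 alone, a difference of -0.51 ± 0.19 (limma, adjusted p = 0.178). Its 5 other probe sets gave -0.74 to 0.70, so its direction depended on the probe set. They gave -0.37 to 1.61 at 3 days against control and -0.43 to 1.27 at 10 weeks against 4 weeks. Gjb5, a connexin of mouse epidermis, read 9.56 and 9.60 at 10 weeks and 8.64, 8.98 and 8.89 at 4 weeks, and the difference of 0.74 ± 0.29 did not pass (limma, adjusted p = 0.794). Gjc1, better known from heart and smooth muscle, was at 4.52 at 3 days and at 5.42, 5.67 and 5.61 in control (-1.05 ± 0.51, limma, adjusted p = 1.00). A second Gjc1 probe set, with nearly the same mean signal, gave -1.72 at 3 days and -1.79 at 10 weeks against control. The probe set used gave -0.84 at 10 weeks.

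The counts over the families were small. At 4 weeks against control, 2 of the 30 genes passed (Cldn1 higher and Tjp3 lower), where 3.24% of all 14286 genes did, and 4 had an unadjusted p below 0.05, where 15.1% did. At 10 weeks 1 passed (Cldn1), where 0.7% of all genes did, and 5 had an unadjusted p below 0.05 (10.6% of all genes). With β-catenin loss against SmoM2 alone 1 passed (Gjb6), where 2.23% did, and 7 had an unadjusted p below 0.05 (17.2%). With β-catenin loss against control, limma called 0 of the 30, where 0.371% of all genes passed, and 6 had an unadjusted p below 0.05 (14.6%), with 0 to 2 called under the alternatives. At 3 days limma called 0, with 2 at an unadjusted p below 0.05 (1.55% of all genes), and at 1 week 0, with 3 (4.74%). At 4 weeks against 1 week limma called 0, with 0 at an unadjusted p below 0.05 (4.82%), and at 10 weeks against 4 weeks 0, with 2 (6.25%). In each of these 4 comparisons 0% of all genes passed, and every alternative run also called 0 of the 30. Cldn23 was 1 of the 2 genes counted at 3 days. It passed the signal filter only through the 3-day and bulge SmoM2 arrays, so its place in that count is not independent of the filter.

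The median difference of the 30 genes was 0.00 at 4 weeks and -0.05 over all genes, and -0.07 at 10 weeks and -0.06 over all genes. Groups did not overlap for 5 of the 30 at 4 weeks (17.3% of all genes), 14 at 10 weeks (37.3%), 11 with β-catenin loss against control (33.6%) and 8 against SmoM2 alone (28.6%). At 1 week it was 3 (7.48%), at 4 weeks against 1 week 0 (5.06%) and at 10 weeks against 4 weeks 10 (26.6%).

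With β-catenin loss, 1 of the 10 tested connexins passed against SmoM2 alone (Gjb6). The 10 differences were negative, with a median of -0.45, where the median of all genes was -0.09. Of all 30 junction genes, 24 were negative too, and the share of all genes with a negative difference was not taken. Gja4, Gjb1, Gjc1, Gjd2 and Gjd4 read 4.29 to 5.75 on all arrays, where array medians were 5.38 to 5.53. Gja3 read 3.46 and 3.85 on the loss arrays. The signs of these connexins thus rest on low signal. Quantile normalization and median centring shifted the median of all genes in this comparison by 0.10 and 0.17, and 1 connexin then turned positive (at 0.06 and 0.09) with family medians of -0.35 and -0.29. Against control all 10 were negative in the deposited values and under both scalings, with medians of -0.47, -0.33 and -0.34. Of the 16 claudins, 12 were below SmoM2 alone in the deposited values, 9 after quantile normalization and 8 after median centring. Both loss comparisons use the same 2 arrays.

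**Figure D3:**
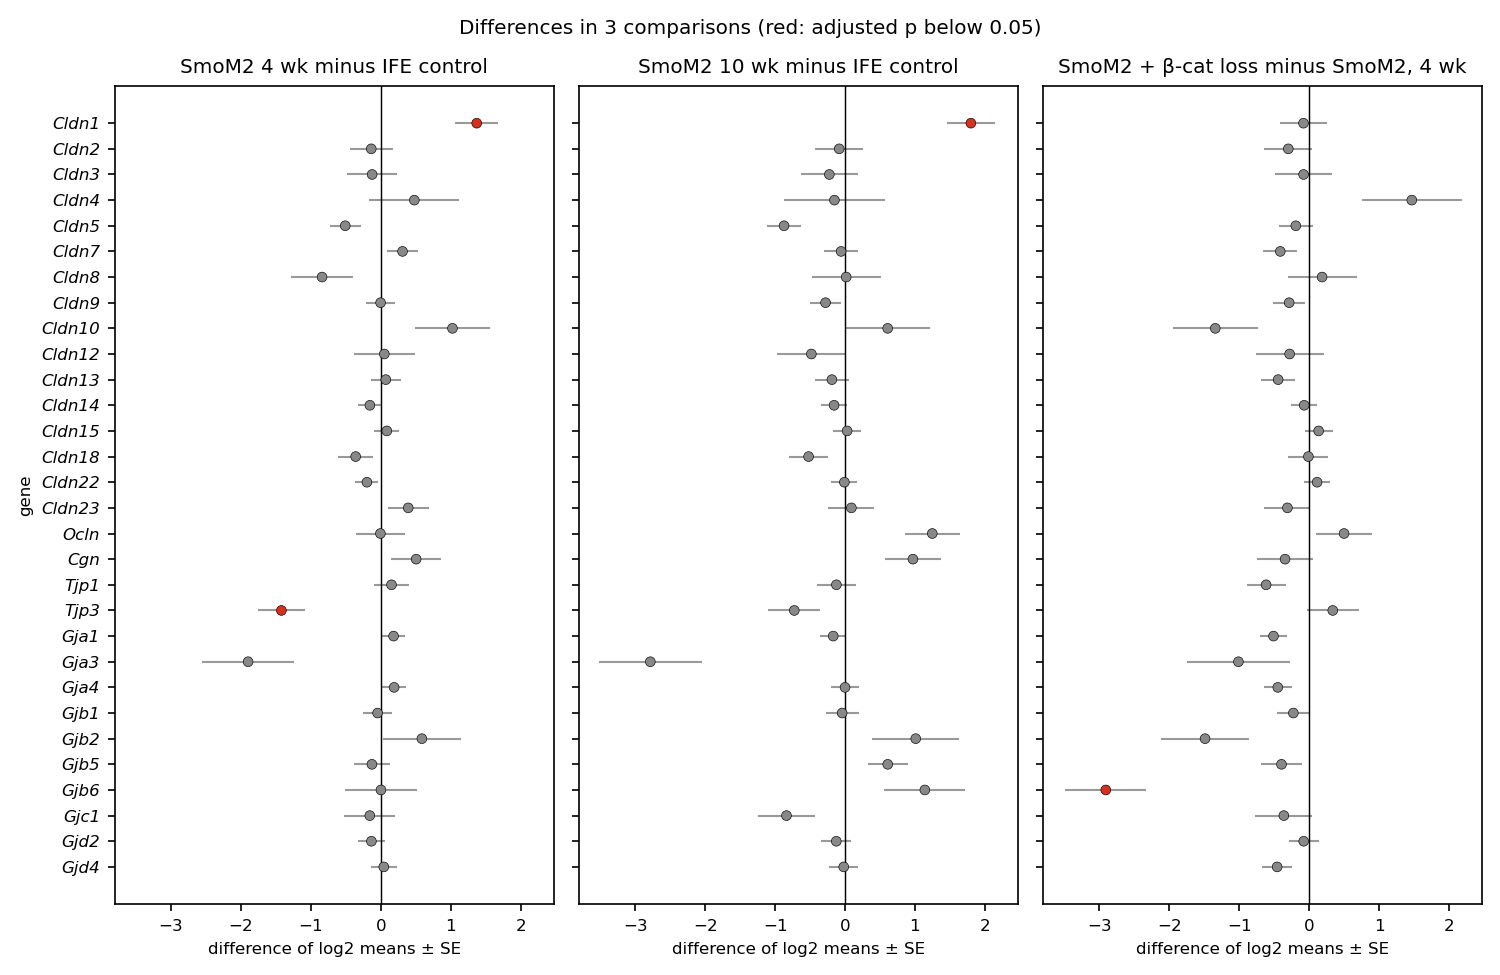
Difference of log2 group means ± SE from the limma fit for the 30 tested genes, at 4 weeks and 10 weeks against IFE control and with β-catenin loss against SmoM2 alone, red where the adjusted p was below 0.05. Cldn1 stands at 1.37 and 1.80 in the first panels, Tjp3 at -1.42 in the first, and Gjb6 at -2.91 in the last.

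In the hair follicle there was 1 array per group, so the differences have no replicate check and no test. Gjb2 was at 12.93 in the array labelled bulge control, against 8.23 to 9.25 in IFE control, 4.14 above the IFE mean, and Gjb6 was at 10.71, 1.89 above it. Tjp3 was at 5.16 and Gjb5 at 6.57, below all IFE control arrays by mean differences of -2.33 and -2.40, and Gja3 was at 4.13 (-2.43). Past 2-fold were 9 of the 30 genes, 2 higher and 7 lower, where 12.9% of all genes were past it (7.24% higher and 5.68% lower). The other lower ones were Cldn5, Cldn8, Gjc1 and Ocln, with Cldn5 and Gjc1 barely past 2-fold (-1.01 each). In the array labelled bulge control, Cldn5 (4.82), Cldn8 (4.81), Gja3 (4.13) and Gjc1 (4.56) read below the 40th percentile (4.88 to 5.01 by array). The 5 bulge markers averaged 11.4 there and 7.70 in IFE control, and the recombinase lines differ between the tissues.

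With SmoM2 in the bulge, 8 of the 30 genes were at least 2-fold above the array labelled bulge control and 0 were at least 2-fold below it, where 6.94% of all genes were past 2-fold (4.35% above and 2.59% below). Cldn4 was at 8.11, against 5.98 in the bulge control, Ocln at 7.93 against 5.92 and Cldn23 at 5.90 against 3.98. The others were Cldn8, Cldn10, Gja3, Gjb5 and Tjp3, which were 1.33 to 1.49 higher. Cldn23 passed the signal filter only through this bulge SmoM2 array and the 3-day IFE array. Its place in the counts for bulge SmoM2 is therefore not independent of the filter. The 3 lowest differences were those of Gjb2 (12.03 against 12.93), Gjb6 (9.85 against 10.71) and Cldn3 (6.06 against 6.87). Cldn1 was at 11.84 against 10.89, a difference of 0.95. The mean Y-linked signal was 3.48 with SmoM2 and 6.35 in the bulge control, and its part in these differences was not tested.

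The median difference of the 30 genes in the bulge was 0.29, and that of all genes was 0.01. Ocln, Tjp3, Gja3, Gjb5 and Cldn8 were at least 2-fold lower in the bulge control than in IFE control. They were also at least 2-fold higher in the bulge with SmoM2 than in the bulge control. Both differences use the same single bulge control array, in which Gja3 (4.13) and Cldn8 (4.81) read below the 40th percentile. In that SmoM2 array the suprabasal markers averaged 9.98 against 8.86 in the bulge control, the inner root sheath and hair markers 7.56 against 5.51, the leukocyte markers 6.28 against 5.27 and the dermal fibroblast markers 6.87 against 5.85. The bulge markers averaged 10.5 against 11.4, the basal keratinocyte markers 11.6 against 12.2 and the Merkel cell markers 6.07 against 7.09. Of the 4 Merkel cell markers only Krt8 and Krt18 passed the signal filter, and they were lower (-2.11 and -2.14). Krt20 (4.16 against 4.00) and Atoh1 (4.38 against 4.36) did not pass it. The part of these lists in the differences was not tested. Compared with IFE SmoM2 at 4 weeks, 5 genes were at least 2-fold higher in bulge SmoM2 (Gjb2, Cldn23, Cldn4, Cldn10 and Gjb6) and 0 lower, where 5.82% of all genes were past 2-fold (4.04% higher and 1.78% lower).

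**Figure D4:**
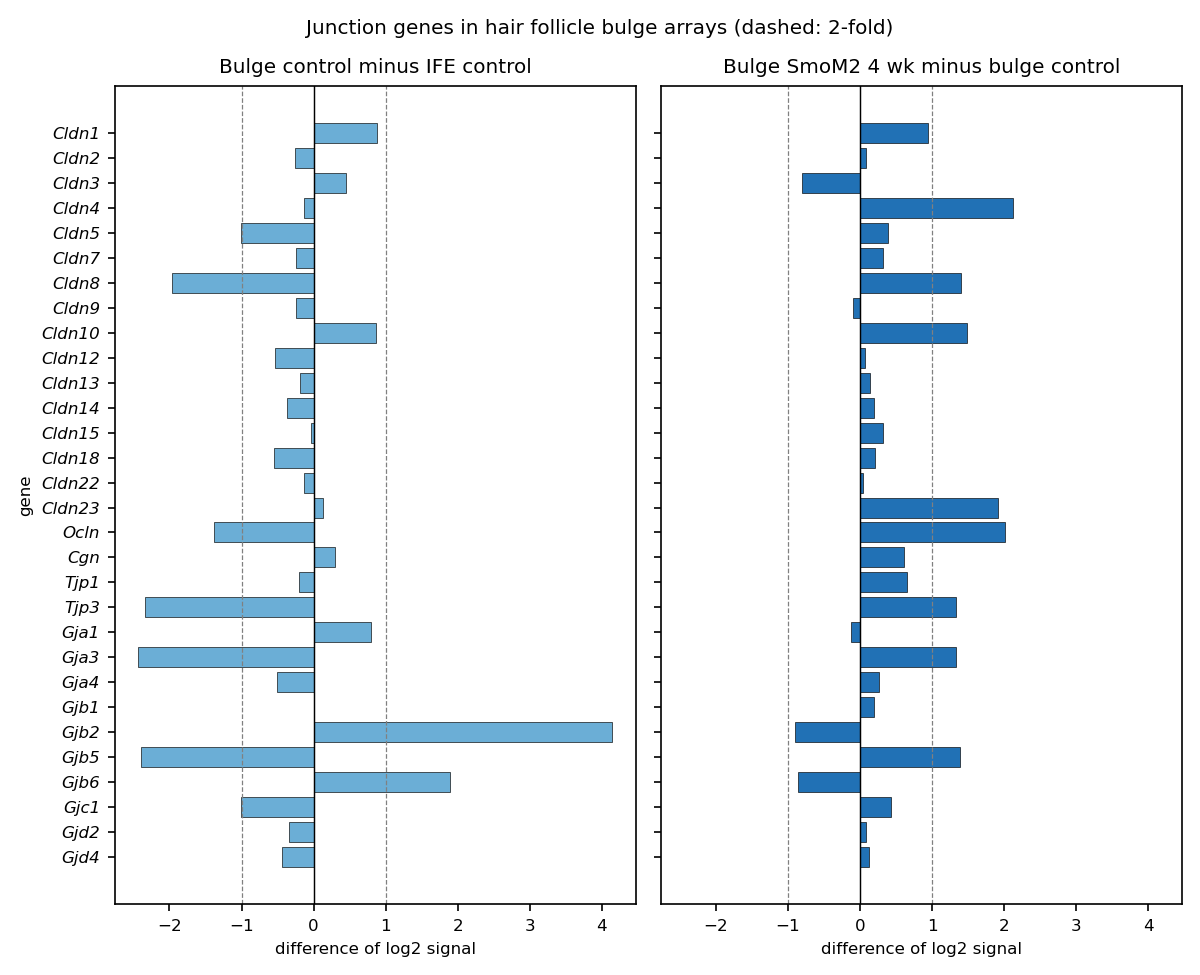
Difference of log2 signal for the 30 tested genes, of the single array labelled bulge control from the IFE control mean (n = 3) and of the single bulge SmoM2 array from the bulge control array, with dashed lines at 2-fold. Gjb2 is 4.14 above IFE control in the first panel, and Cldn4, Ocln and Cldn23 have the highest differences, 2.13, 2.01 and 1.92, in the second.

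Of 37 listed partners of these junctions, such as junctional adhesion molecules, polarity proteins and pannexins, 34 were tested and 2 passed in 1 comparison each. Cgnl1, the paralogue of cingulin, rose at 4 weeks to between 8.59 and 10.25 on the 3 arrays, against 6.89, 6.33 and 6.76 in control, without overlap (2.62 ± 0.56, 6.14-fold, limma, adjusted p = 0.0323). With β-catenin loss Cgnl1 read 6.83 and 6.80, below all arrays of SmoM2 alone (-2.46 ± 0.63, limma, adjusted p = 0.0658). Patj, a polarity scaffold of tight junctions, fell with β-catenin loss to 6.80 and 7.24, against 7.94, 8.29 and 8.13 with SmoM2 alone (-1.10 ± 0.24, limma, adjusted p = 0.0409). Each is 1 of 34 in its comparison, where 3.24% and 2.23% of all genes passed.

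Among 15 listed transcription factors known to act on junction genes, 13 were tested and limma called 0 in all 8 comparisons. At an unadjusted p below 0.05 there were 3 at 4 weeks, 1 in each β-catenin loss comparison and 0 in the other 5. Twist2, a repressor of epithelial genes, had the lowest p at 4 weeks (1.23 ± 0.37, limma, adjusted p = 0.111). The 13 factors differed from control by -1.41 to 1.23 at that time, with 6 higher and 7 lower. The 6 dermal fibroblast markers averaged 6.33 at 4 weeks and 5.55 in control, and their part in the Twist2 value was not tested.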

How the data were processed

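The authors deposited 1 table of 45101 probe sets for 16 arrays, in which the values are on a log2 scale, as read from their range. Per the labels' protocols, RNA of sorted cells was amplified with a 3′ in vitro transcription kit. R 2.14.0 is named in the submitters' processing notes. How background was corrected, arrays were scaled and probes were summarised is not stated there or elsewhere in the material used. Probe sets with 1 gene in the array annotation (34958) were kept and each gene was read from the one of highest mean. A gene was tested if it exceeded its array's 40th percentile on 2 or more of the 16 arrays (14286 genes).

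The tests used limma 3.58.1, run in R 4.3.3, with group means over the 14 IFE arrays, 8 contrasts, empirical Bayes moderation (total degrees of freedom 11.6), and Benjamini-Hochberg adjustment over all genes tested at a threshold of 0.05. The script was tested on simulated data. An adjusted p that prints as 1.00 is just below it. For the bulge arrays only differences were taken, past 2-fold or not. Promoter windows came from RefSeq on GRCm38.p6, and all 38 gene IDs matched its gene table.

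Groups came from the sample labels. Whether replicates are separate mice is not stated in them, so p-values reflect only the spread of these arrays, which may be technical. Replicate numbers come from the titles. Same-numbered arrays of control, 1 week and 4 weeks deviated together (correlation of deviations 0.34 to 0.70 in each of 3 pairs per comparison), so the numbers were taken to pair these groups. For 10 weeks and β-catenin loss, with 2 pairs, it was -0.18 to 0.12 and they were not. The main fit did not use any pairing, and replicate blocks were run only as alternatives.

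The genes, lists and tests were chosen with earlier results of these data known. Named were the genes called in any comparison, a set with a known place in skin, the 2 highest and 2 lowest differences of each comparison (3 for the bulge pair), and called partners and factors. Genes named beyond this were chosen after their values were seen. Alternatives were other scalings, filters, probe set choices, array weights, sample sets, blocks, a Y-linked covariate and leaving out each array.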

Additional observations from a re-analysis of the deposited data

Results flagged for a closer look

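In 8 cases all arrays of one group moved one way from their control and all arrays of the other moved the opposite way. None of these differences between effects was tested, and in each case at least 1 of the groups was a single array. In the 3 bulge cases a single array was set against a single control array, so any difference counted as a move. How many of all genes meet this rule was not counted, so the cases are a description only. No group held the 4 or more arrays needed to look for a single outlying array.

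Tjp3 was above control in the 3-day array (0.56) and below it at 1 week (-0.88), 4 weeks (-1.42) and 10 weeks (-0.73), so the 3-day effect exceeded the later ones by 1.44, 1.98 and 1.28 on the log2 scale. In the bulge SmoM2 array Tjp3 was above the bulge control (1.33), which exceeded the IFE effect at 4 weeks by 2.76. Gja3 was likewise above control at 3 days (0.54) and in the bulge (1.33), and below it in the IFE at 4 weeks (-1.90) and 10 weeks (-2.78). At 3 days Gja3 read 7.11, barely above the highest control array (7.10). The 3-day effect exceeded those at 4 and 10 weeks by 2.44 and 3.33, and the bulge effect exceeded the IFE effect at 4 weeks by 3.23. Cldn5 was at 0.39 in the bulge and -0.51 in the IFE at 4 weeks, a gap of 0.90.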

How the results depend on the processing

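The 4 comparisons with 0 genes called (3 days or 1 week with control, and 4 weeks with 1 week or with 10 weeks) kept 0 under every alternative run. At 4 weeks the 2 calls became 1 with no filter and with the mean of all probe sets, 0 with the probe set of largest variance and with array weights, and 0 to 0 when 1 array was left out. At 10 weeks the 1 call became 0 with quantile normalization, no filter, the mean of all probe sets and the probe set of largest variance, 5 with array weights, 3 with only the groups compared and 0 to 0 when 1 array was left out. With β-catenin loss against control, the 0 calls became 1 with array weights and with only the groups compared, and 0 to 2 when 1 array was left out. Against SmoM2 alone the 1 call became 0 with only the groups compared and with the Y-linked covariate, and 0 to 2 when 1 array was left out. Leaving out arrays or dropping the filter means fewer arrays or more genes tested by construction. Over all genes, the counts called also moved: 1545 with array weights at 10 weeks against 100, and, with β-catenin loss against SmoM2 alone, 17 with only the groups compared against 318. For the scaling, the probe set choices, the weights and the covariate the cause was not tested.

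The replicate block left the 2 calls at 4 weeks, where the numbers pair the arrays, with 873 genes called over all, against 463 without it. Where the numbers do not pair the arrays, the replicate block gave 0 at 10 weeks, 1 (Gjb6) with β-catenin loss against control, as did the block on the experiment number, and 1 against SmoM2 alone. It changed no other count of the 30 genes.

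Over 44 pairs of a gene and a comparison, 737 alternative values kept direction and side of the threshold in 687 cases, lost the call in 33, gained it in 13 and reversed in 4. The reversed values were -0.28 for Cldn10 at 1 week without 1-week replicate 2 (leaving out 1 array gave -0.28 to 0.97), -0.059 for Ocln with β-catenin loss against SmoM2 alone with the mean of all probe sets, 0.70 for Gja1 in that comparison with the probe set of largest variance, and -0.19 for Cldn4 there without loss replicate 1 (leaving out 1 array gave -0.19 to 3.12). The calls of Cldn1 and Tjp3 at 4 weeks held in 9 of 18 alternatives each, that of Cldn1 at 10 weeks in 7 of 17 and that of Gjb6 in 12 of 17. Low signal limits the 8 genes below the filter and also part of the tested ones. Of the 38 genes, 15 were above the 60th percentile on 2 or more arrays. Groups of 1 to 3 arrays limit all comparisons.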
